A study of Mus musculus with 12 samples.

Results

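Metal-handling genes were examined in mouse colon organoids (colonoids) given IL-1b, IL-22 or both for 12 hours. The set was taken by name: every row of the deposited count table whose symbol belongs to the solute carrier families Slc11, Slc30, Slc31, Slc39, Slc40 or Slc41, with the metallothioneins Mt1 and Mt2, the transferrin receptor Tfrc and the ferritin chains Fth1 and Ftl1. It held 37 of the 35869 symbols in the table, of which 31 had enough counts to be tested and 11 rose or fell in at least 1 comparison.

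Epithelial cells keep zinc, iron, copper and magnesium within narrow limits because each is an enzyme cofactor and an excess of free zinc, iron or copper is toxic. Slc39 proteins move zinc into the cytosol from outside the cell or from organelles, Slc30 proteins move it out of the cytosol, and metallothioneins bind what is free. In the gut, iron enters from the lumen through Slc11a2, leaves at the blood side through Slc40a1 (ferroportin), is stored in ferritin and is taken from transferrin by Tfrc. Copper enters through Slc31a1, and Slc41 proteins carry magnesium.

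The colonoids were grown from crypts of C57BL/6 mouse colon in Matrigel, in a medium with EGF and L-WRN conditioned medium that every group shared. There were 4 groups of 3 libraries: 100 ng/mL IL-1b with 1 ng/mL IL-22, IL-22 alone at 1 ng/mL, IL-1b alone at 100 ng/mL, and unstimulated colonoids. The labels give both doses for every sample, unstimulated ones included, so each group was assigned the doses of the cytokines in its name. Each cytokine was used at a single dose and time. The labels do not say whether the 3 libraries of a group came from separate mice or cultures, so the p-values measure the spread between these libraries, which may be technical.

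Libraries held 4703902 to 5804033 counts, so a count of 3 corresponded to 0.499 to 0.665 CPM (counts scaled by the library total and its TMM factor). All 12 markers of colon epithelium passed the filter, and their summed level was 3607 to 3754 CPM with both cytokines, 3479 to 3906 CPM with IL-22, 3115 to 3398 CPM with IL-1b and 3336 to 3512 CPM in unstimulated colonoids. Among them Car1, Krt8 and Krt19 had 1.08, 0.934 and 0.918 counts per base of the principal transcript. Counts level off in that range, as described below for the metallothioneins, and Krt19 had 1392 to 1480 counts with a variance over mean of 0.433. No direction is therefore read from this sum. Of 16 leukocyte markers 5 passed, Tyrobp and Adgre1 were at 0, and the sum was 115 to 134 CPM with both cytokines, 113 to 139 CPM with IL-22, 100.5 to 156 CPM with IL-1b and 72.2 to 81.4 CPM unstimulated. Most of that sum was Cd14, at 104 ± 9.13 CPM with both cytokines, 104 ± 9.21 with IL-22, 80.1 ± 2.45 with IL-1b and 66.3 ± 5.9 unstimulated (mean ± SD, n = 3 each). IL-1b replicate 1 stood apart from the other IL-1b libraries, with 104 counts of Ptprc, 130 of Laptm5 and 76 of Coro1a, against 12 to 20, 28 to 32 and 9 to 14 in the other two. Of 8 neutrophil markers 3 passed, Mpo, Elane and Retnlg were at 0, and the sum was 156 to 184 CPM with both cytokines, 141 to 174 CPM with IL-22, 117 to 129 CPM with IL-1b and 109 to 131 CPM unstimulated, of which Ly6g made up the largest share. Ly6g had 0.752 counts per base, so no direction is read from this sum either. Of 10 fibroblast and smooth muscle markers 2 passed, Lum was at 0, and the sum was 20.2 to 28 CPM with both cytokines, 30.6 to 35.3 CPM with IL-22, 53.6 to 69.5 CPM with IL-1b and 39.1 to 55.2 CPM unstimulated. Pdgfrb and Vim carried it: Pdgfrb was at 13.3 CPM with both cytokines, 21.4 with IL-22, 39 with IL-1b and 39.8 unstimulated, while Col1a1, Col1a2, Col3a1 and Dcn had 9, 2, 1 and 1 counts in all libraries together. Of 6 endothelial markers 2 passed, Cdh5 and Kdr had 1 count each in all, and the sum was 1.93 to 5.68 CPM with both cytokines, 2.88 to 3.21 CPM with IL-22, 8.84 to 11.8 CPM with IL-1b and 7.97 to 10.5 CPM unstimulated. The part of these shifts in the results below was not tested, and in bulk RNA fewer cells of a type and less RNA per cell cannot be told apart.

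Iron genes are controlled in large part after transcription, through hairpins called iron-responsive elements, and those hairpins are shown because they mark out the genes whose RNA level is only one layer of control. A search of the GENCODE M21 transcripts (mm10) looked for a bulged C, 5 bases, the loop CAGTG followed by A, C or T, and 5 bases that pair back with the first 5. It found 1 site in the 5′UTR of each of Fth1, Ftl1 and Slc40a1 and 4 in the 3′UTR of Tfrc, at chr19:9982733-9982759 (plus strand), chr7:45459780-45459806 (minus strand), chr1:45925466-45925492 (minus strand) and, on the plus strand, chr16:32631220-32631246, chr16:32631599-32631625, chr16:32631664-32631690 and chr16:32631711-32631737. The pattern occurred in 0.08% of 19993 principal-transcript 5′UTRs and in 0.392% of 20907 3′UTRs. Each sequence is 27 bases, read 5′ to 3′ on the gene's strand, and capitals mark the bulged C and the 6-base loop.
Fth1 5′UTR: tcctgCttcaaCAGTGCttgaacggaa
Ftl1 5′UTR: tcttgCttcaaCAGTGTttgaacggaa
Slc40a1 5′UTR: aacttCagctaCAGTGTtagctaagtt
Tfrc 3′UTR, first: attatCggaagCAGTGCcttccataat
Tfrc 3′UTR, second: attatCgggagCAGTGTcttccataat
Tfrc 3′UTR, the third: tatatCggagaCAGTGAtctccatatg
Tfrc 3′UTR, the fourth: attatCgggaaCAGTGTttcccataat
A 5′UTR hairpin is known to hold back translation when iron is low, and the 3′UTR hairpins of Tfrc are known to protect its RNA from decay in the same state. The ferritin and ferroportin sites therefore act on protein output, which RNA counts do not measure. No match was found in Slc11a2, which says only that this pattern is not in the transcripts searched. The search required all 5 bases of the stem to pair and would miss a hairpin with an unpaired base there. Slc11a2 is therefore not placed outside this form of control.

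Of the 31 tested members, 20 were called in no comparison, and the called shares given in the next paragraph lay near those of all genes. The other 11 passed in comparisons of libraries given IL-22 with libraries not given it, and none passed the test in the comparisons that add IL-1b. IL-22 raised Slc41a1, a sodium-coupled magnesium exporter, and the zinc carriers Slc39a1, Slc39a7 and Slc30a7, in each of the 3 comparisons that test IL-22 or the pair of cytokines against libraries without IL-22. Slc11a2, the luminal iron importer, was the member with the largest called decrease, and it fell in the comparisons of both cytokines with IL-1b alone and with unstimulated colonoids. Slc40a1, Slc30a10, Slc39a5 and Slc41a2 fell in the same 2 comparisons.

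With IL-22 alone, 5 of 31 members rose and 0 fell against unstimulated colonoids, which is 16.1% of the members, where 22.5% of all 13987 genes tested were called, 11.9% higher and 10.6% lower (adjusted p under 0.05 by edgeR's quasi-likelihood test with Benjamini-Hochberg adjustment). With both cytokines, 4 rose and 5 fell against unstimulated colonoids, or 29.0% of members beside 27% of all genes, 13.7% higher and 13.3% lower. Against IL-1b alone, both cytokines raised 5 members and lowered 5, or 32.3% beside 26.3%, 13.3% higher and 13% lower. These shares lay near the background in each case. The decreases rested in part on single libraries: against unstimulated colonoids 2 members fell without the third library of both cytokines, and 3 without unstimulated replicate 1 or replicate 2. Against IL-1b, 1 fell without IL-1b replicate 2, 2 without the second or the third library of both cytokines, and 3 without IL-1b replicate 1, which stood apart in leukocyte genes. In that last case Slc40a1, Slc41a2 and Slc39a11 lost their calls (edgeR quasi-likelihood, Benjamini-Hochberg adjusted p = 0.0568, 0.0820 and 0.0549). The members' median log2 fold change was 0.04, 0.03 and 0.02 in these 3 comparisons in that order, beside 0.00 for all genes in each. IL-22 against unstimulated and both cytokines against IL-1b use different libraries, whereas the 3 comparisons with unstimulated colonoids share the same 3 reference libraries. Scaling by total counts alone moved the split over all genes against unstimulated colonoids to 1206 higher and 1991 lower with IL-22, against 1661 and 1483 with the scaling used here. Among members it gave 4 higher and 1 lower with IL-22 against unstimulated, and 4 higher and 8 lower with both cytokines against IL-1b.

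**Figure D1:**
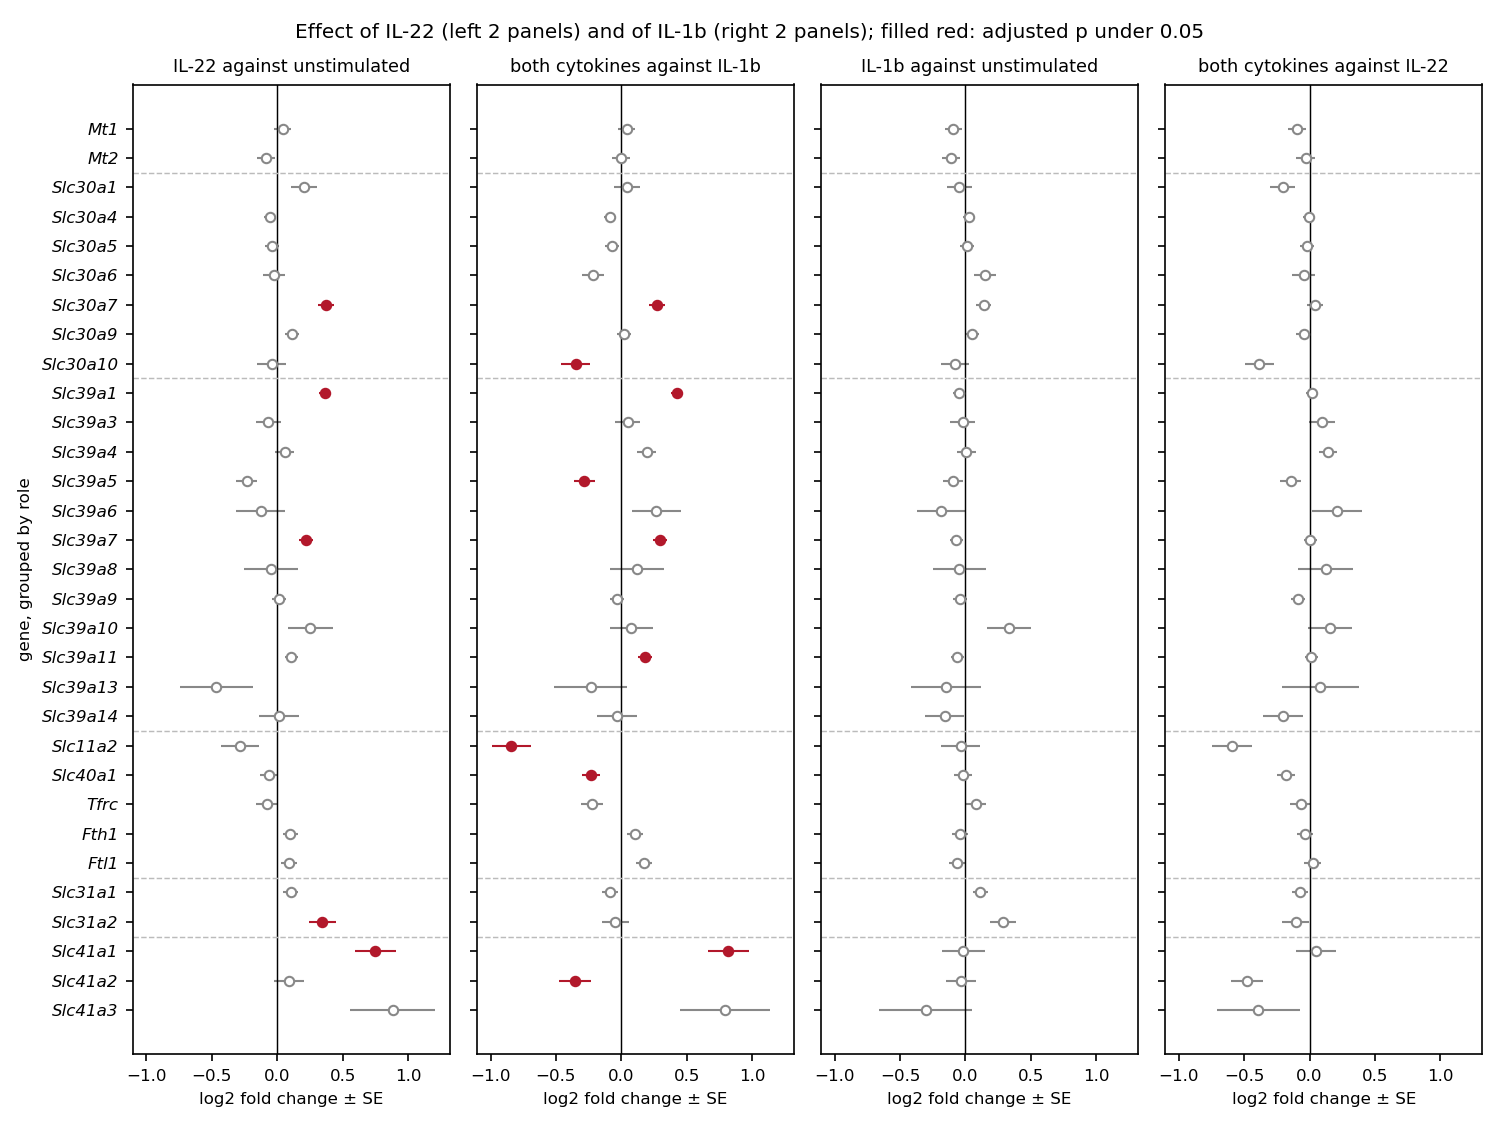
Log2 fold change with its standard error for each of the 31 tested metal-handling genes, grouped by role and separated by dashed lines, in 4 comparisons of 3 libraries against 3. Filled red points passed an adjusted p of 0.05, and there are 5 with IL-22 against unstimulated, 10 with both cytokines against IL-1b and 0 in each of the comparisons that test IL-1b.

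Adding IL-1b moved no member past the threshold. Against unstimulated colonoids, IL-1b alone gave 0 called members (edgeR quasi-likelihood test, 2 with an unadjusted p under 0.05, and 0 by DESeq2), beside 0.0715% of all genes, and the members' log2 fold changes ran between -0.30 and 0.33. With IL-22 present in both groups, adding IL-1b again gave 0 called members (4 with an unadjusted p under 0.05, and 0 by DESeq2), beside 0.0786% of all genes. The log2 fold changes there ran between -0.59 and 0.21, and the 3 lowest were -0.59 ± 0.15 for Slc11a2 (edgeR quasi-likelihood, Benjamini-Hochberg adjusted p = 0.174), -0.48 ± 0.12 for Slc41a2 (adjusted p = 0.172) and -0.38 ± 0.11 for Slc30a10 (adjusted p = 0.235). Without the filter on low counts these 3 genes were called lower. In these 3 genes and in Mt1 and Slc31a2, all 3 libraries with both cytokines lay below all 3 with IL-22 alone, and no member lay wholly above. Over all genes, 5.61% were wholly below and 6.45% wholly above. The interaction, which asks whether the effect of IL-22 differed with IL-1b present, called 0 of 31 members and 0% of all genes (4 members with an unadjusted p under 0.05, and 0 members by DESeq2).

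Levels per kilobase of the principal transcript are given as group means, because several members differed between groups, and no order between genes was tested. Slc11a2 was at 109.7 CPM per kb with both cytokines, 165 with IL-22, 196 with IL-1b and 201 unstimulated. Slc40a1 was at 101 CPM per kb with both cytokines, 115 with IL-22, 119 with IL-1b and 120.3 unstimulated, and Tfrc at 82.4 CPM per kb with both cytokines, 86.5 with IL-22, 96.2 with IL-1b and 91.2 unstimulated. The ferritin chains and metallothioneins had group means of 116 to 171 CPM per kb, but their counts level off near 1 per base, as described for the metallothioneins, so they are given no place in an order. Slc11a2 and Slc40a1, at 0.883 and 0.594 counts per base, lie in or near that range, so the same limit applies to their levels. Among the zinc importers the highest differed by group. Slc39a4, the intestinal zinc uptake carrier whose human form is mutated in acrodermatitis enteropathica, was at 79 CPM per kb with both cytokines, 71.7 with IL-22, 69.2 with IL-1b and 68.8 unstimulated. Slc39a5, the importer of the basolateral membrane, was at 60.2 CPM per kb with both cytokines, 66.6 with IL-22, 73.3 with IL-1b and 78.3 unstimulated, and Slc39a1 was at 74.7 CPM per kb with both cytokines, 73.9 with IL-22, 55.5 with IL-1b and 57.5 unstimulated. The highest zinc exporter in every group was Slc30a10, known as a manganese exporter, at 43 CPM per kb with both cytokines, 56.2 with IL-22, 54.8 with IL-1b and 57.9 unstimulated. Averaged over the 12 libraries, the lowest tested members were Slc39a10 at 4.45, Slc39a13 at 2.68, Slc41a3 at 2.27 and Slc39a6 at 1.75 CPM per kb.

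**Figure D2:**
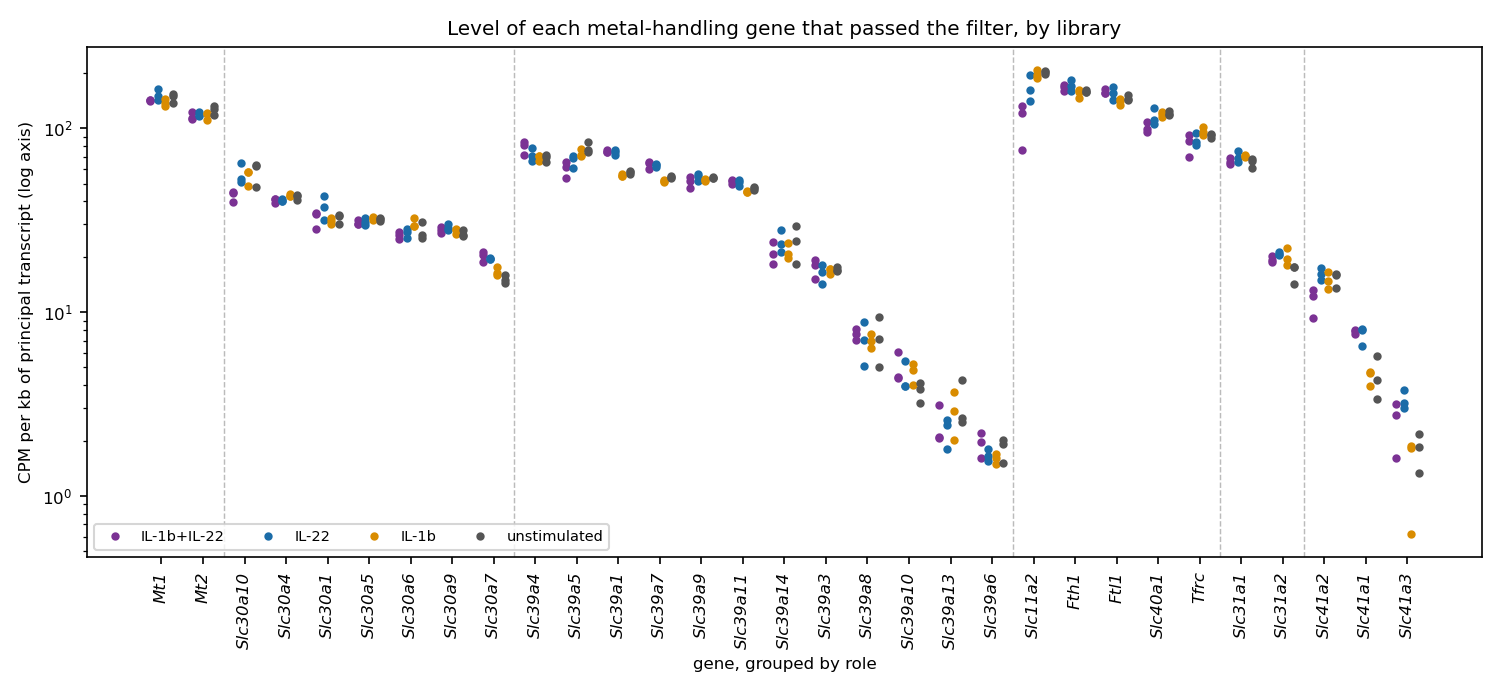
Level of each of the 31 tested members in each library, in CPM per kb of the principal transcript on a log axis, with genes grouped by role and sorted by mean level within a role. Each point is 1 library, and the points of the 4 groups lie side by side, so that the separation of the libraries with both cytokines at Slc11a2 and of those with IL-22 at Slc41a1 can be read against the distance between genes.

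The 6 members that were not tested were too low to read. Slc30a8, the zinc carrier of insulin granules, had no count in any library, which allows at most the 3 counts given above per library. Slc11a1, the iron and manganese carrier of phagocytes, had 8 counts in all 12 libraries together. Slc30a3, the zinc carrier of synaptic vesicles, had 4 counts and Slc39a12 had 6. Slc30a2, a carrier of secretory vesicles, had 11 counts summed over the libraries with both cytokines, 21 with IL-22, 10 with IL-1b and 6 unstimulated, and 13 of the 21 came from IL-22 replicate 2. Slc39a2 had 9 counts with both cytokines, 10 with IL-22, 17 with IL-1b and 35 unstimulated, of which 19 came from unstimulated replicate 1.

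The metallothioneins Mt1 and Mt2, whose RNA is the usual readout of free zinc because the zinc sensor Mtf1 switches them on, stayed within narrow counts. Mt1 had 365 to 453 counts and Mt2 267 to 371 counts over the 12 libraries, and neither passed the test in any of the 6 comparisons. Both were in a range of read density where the counts of coding genes tended to vary less. With 0.752 counts per base of its principal transcript Mt1 had a variance over mean of 1.58, and Mt2 had 2.97 at 0.623 counts per base. Not every gene at such density had narrow counts: Slc11a2, at 0.883 counts per base, had 1173 to 3416 counts and a variance over mean of 224. Whether the counts of Mt1 and Mt2 followed their RNA was not tested. Of 17050 coding genes, 15 exceeded 1 count per base. The median variance over mean of coding genes was 5.73 at 0.1 to 0.4 counts per base and 2.04 at 0.6 to 0.8, and in the small ribosomal protein gene Rps29 the counts ran from 177 to 193 with a variance over mean of 0.118, which is below the value of 1 that counting noise alone would give. Why counts level off there was not tested. Counts were also corrected as if each position of the principal transcript could be counted once. Mt2 with both cytokines against unstimulated then had a log2 fold change of -0.29 (adjusted p = 0.0195, edgeR quasi-likelihood with Benjamini-Hochberg adjustment), against -0.12 ± 0.07 uncorrected (adjusted p = 0.231). No direction is therefore read for the metallothioneins. Slc30a1, the plasma membrane zinc exporter and another Mtf1 target, had far lower density (0.173 counts per base) and did not pass either, with log2 fold changes of 0.00 ± 0.10 with both cytokines (adjusted p = 0.99), 0.20 ± 0.10 with IL-22 (adjusted p = 0.152) and -0.05 ± 0.10 with IL-1b (adjusted p = 0.892), each against unstimulated colonoids. Mtf1 itself had log2 fold changes of 0.03 ± 0.11, 0.01 ± 0.11 and 0.02 ± 0.11 in these 3 comparisons in the same order, none of them called.

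**Figure D3:**
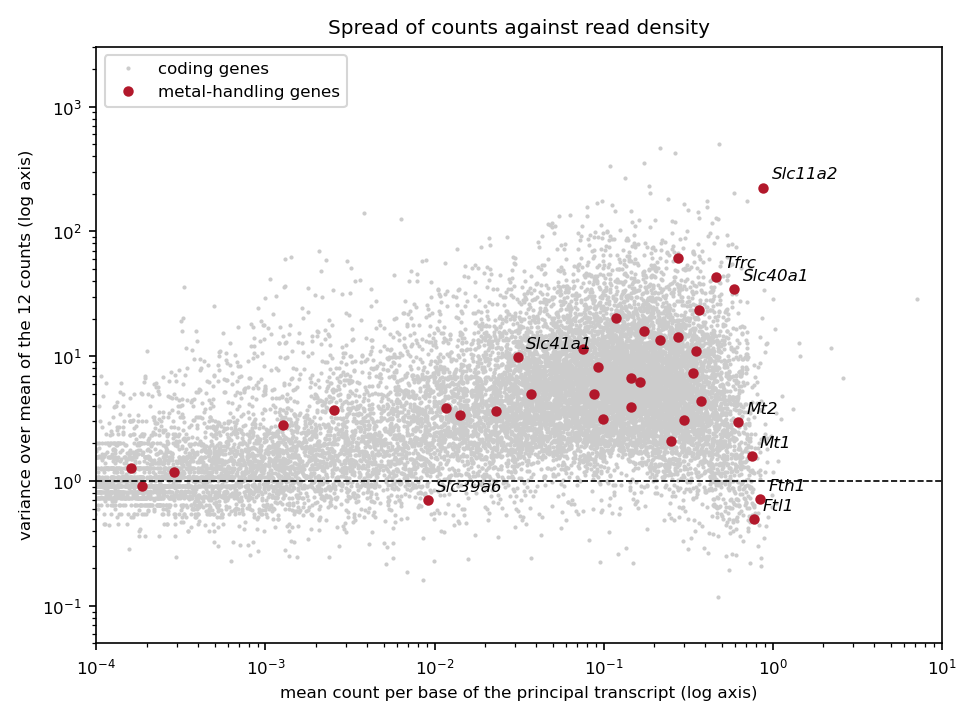
Variance over mean of the 12 counts against mean count per base of the principal transcript, both on log axes, for coding genes (grey) and for the metal-handling genes (red). The dashed line marks a variance equal to the mean, and Fth1 and Ftl1 lie under it at 0.845 and 0.777 counts per base while Slc11a2, at 0.883 counts per base, has a variance 224 times its mean.

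Among the Slc30 zinc exporters, 7 of 10 were tested, and 1 rose and 0 fell with IL-22. With both cytokines 1 rose and 1 fell, both against IL-1b and against unstimulated colonoids. These are single genes of 7, beside 22.5% of all genes called with IL-22, 27% with both against unstimulated and 26.3% with both against IL-1b, as given above. Slc30a7 (chr3:115938973-116007406, minus strand, mm10), which loads zinc into the Golgi for secreted and membrane enzymes such as alkaline phosphatase, had 191, 169.9 and 183 CPM with both cytokines, 176, 176 and 178 CPM with IL-22, 147, 144 and 159 CPM with IL-1b, and 135, 130.2 and 144 CPM in unstimulated colonoids. All libraries with IL-22, alone or with IL-1b, lay above all libraries without it. Its log2 fold change was 0.37 ± 0.06 with IL-22 against unstimulated (edgeR quasi-likelihood, Benjamini-Hochberg adjusted p = 0.000632), 0.41 ± 0.06 with both against unstimulated (adjusted p = 0.000207) and 0.27 ± 0.06 with both against IL-1b (adjusted p = 0.00407). Slc30a5 and Slc30a6, which form the other Golgi zinc carrier as a pair, were not called: their log2 fold changes with IL-22 were -0.04 ± 0.05 and -0.02 ± 0.09 (adjusted p = 0.638 and 0.877), and with both cytokines against IL-1b -0.07 ± 0.05 and -0.22 ± 0.08 (adjusted p = 0.355 and 0.0704).

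Slc30a10 (chr1:185454848-185468762, plus strand), the manganese exporter, fell with both cytokines. It had 262, 259 and 232 CPM with both cytokines, 299, 378 and 307 CPM with IL-22, 284, 337 and 338 CPM with IL-1b, and 367, 366 and 281 CPM in unstimulated colonoids. The 3 libraries with both cytokines were the lowest of the 12, and the IL-22, IL-1b and unstimulated libraries overlapped each other. Both cytokines gave a log2 fold change of -0.43 ± 0.11 against unstimulated (edgeR quasi-likelihood, Benjamini-Hochberg adjusted p = 0.0108) and -0.35 ± 0.11 against IL-1b (adjusted p = 0.0315). With IL-22 alone it was -0.04 ± 0.11 (adjusted p = 0.818). Leaving out 1 library ended these calls in 3 and 4 cases, with an adjusted p of up to 0.0566 against unstimulated and up to 0.113 against IL-1b. The remaining exporters Slc30a1, Slc30a4 of intracellular vesicles and Slc30a9 of mitochondria were not called in any comparison, and over the 12 libraries they ran at 148 to 223, 213 to 240.0 and 147 to 171 CPM in that order.

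Of the 14 Slc39 zinc importers 12 were tested. With IL-22 alone 2 rose and 0 fell, with both cytokines against unstimulated 2 rose and 1 fell, and with both cytokines against IL-1b 3 rose and 1 fell, beside the 22.5%, 27% and 26.3% of all genes called in those comparisons. Slc39a1 (chr3:90248172-90253612, plus strand), a widely expressed zinc importer of the plasma membrane, had 175, 179.7 and 175 CPM with both cytokines, 169.7, 179 and 175 CPM with IL-22, 130.3, 134 and 129.6 CPM with IL-1b, and 138, 136 and 133 CPM in unstimulated colonoids. The 6 libraries with IL-22 and the 6 without it were separated by a gap wider than the range within either set. IL-22 raised it by 0.36 ± 0.05 on the log2 scale (edgeR quasi-likelihood, Benjamini-Hochberg adjusted p = 0.000102), 0.38 ± 0.05 with both against unstimulated (adjusted p = 4.93e-05) and 0.43 ± 0.05 with both against IL-1b (adjusted p = 2.09e-05). IL-1b alone gave -0.05 ± 0.05 (adjusted p = 0.736), and the interaction was 0.07 ± 0.07 (adjusted p = 0.98).

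Slc39a7 (chr17:34028269-34031682, minus strand), which releases zinc from the endoplasmic reticulum into the cytosol and is needed for epithelial self-renewal in mouse intestine, had 150.3, 151 and 138 CPM with both cytokines, 147, 148 and 143 CPM with IL-22, 118, 121 and 119.9 CPM with IL-1b, and 127, 124 and 125 CPM in unstimulated colonoids. Again the libraries with IL-22 lay above those without it. IL-22 raised it by 0.22 ± 0.05 on the log2 scale (edgeR quasi-likelihood, Benjamini-Hochberg adjusted p = 0.00688), 0.23 ± 0.05 with both against unstimulated (adjusted p = 0.00479) and 0.29 ± 0.05 with both against IL-1b (adjusted p = 0.000847). Slc39a7 shares 2084 of its 2584 exon bases with the gene model Gm20427 on the same strand, so how its reads were divided between the 2 symbols is uncertain. Removing the trend of fold change on read density ended the first 2 of these calls (adjusted p = 0.0966 and 0.0773) and kept the third.

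Slc39a11 (chr11:113244853-113650079, minus strand), a zinc carrier found in the Golgi and nucleus, had 139, 138 and 132 CPM with both cytokines, 129.9, 139 and 136 CPM with IL-22, 120.4, 121 and 119 CPM with IL-1b, and 123, 128 and 126 CPM in unstimulated colonoids. The libraries with IL-22 lay above those without it, by a narrow margin. It passed with both cytokines against IL-1b (log2 fold change 0.18 ± 0.05, edgeR quasi-likelihood, Benjamini-Hochberg adjusted p = 0.0158), a call that 6 of 22 alternatives ended, and missed with IL-22 alone (log2 fold change 0.11 ± 0.05, adjusted p = 0.144). Slc39a4 did not pass, with a log2 fold change of 0.20 ± 0.07 with both cytokines against unstimulated (adjusted p = 0.053), although its libraries with both cytokines, at 197 to 231 CPM, lay above the unstimulated ones, at 179 to 196 CPM.

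Slc39a5 (chr10:128395931-128401229, minus strand), which takes zinc from the blood side and is restricted to a few epithelia, went the other way from the 3 importers above. It had 132, 125 and 108 CPM with both cytokines, 123, 139 and 142 CPM with IL-22, 145, 157 and 143 CPM with IL-1b, and 153, 171 and 151 CPM in unstimulated colonoids. The libraries with both cytokines were all below those with IL-1b alone and the unstimulated ones, and the IL-22 libraries overlapped both cytokines but not unstimulated. The log2 fold change with both cytokines was -0.38 ± 0.08 against unstimulated (edgeR quasi-likelihood, Benjamini-Hochberg adjusted p = 0.00354) and -0.28 ± 0.08 against IL-1b (adjusted p = 0.02), the second of which was lost without IL-1b replicate 2 (adjusted p = 0.0711) and without the third library of both cytokines (adjusted p = 0.0876). With IL-22 alone it was -0.23 ± 0.08 and narrowly missed (adjusted p = 0.0528), and 9 of 22 alternatives called it lower. The 7 importers not yet described were not called in any comparison. Slc39a14 and Slc39a8, which also carry manganese and iron, ran at 89.7 to 144 and 16.7 to 31.2 CPM over the 12 libraries. Slc39a9 ran at 246 to 293 CPM and Slc39a3 at 49.3 to 66.1 CPM. Slc39a10, Slc39a13 and Slc39a6 ran at 17.6 to 33.5, 4.43 to 10.5 and 5.82 to 8.58 CPM, and Slc39a10 had the highest log2 fold change of any member with IL-1b alone, at 0.33 ± 0.17 (adjusted p = 0.54).

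**Figure D4:**
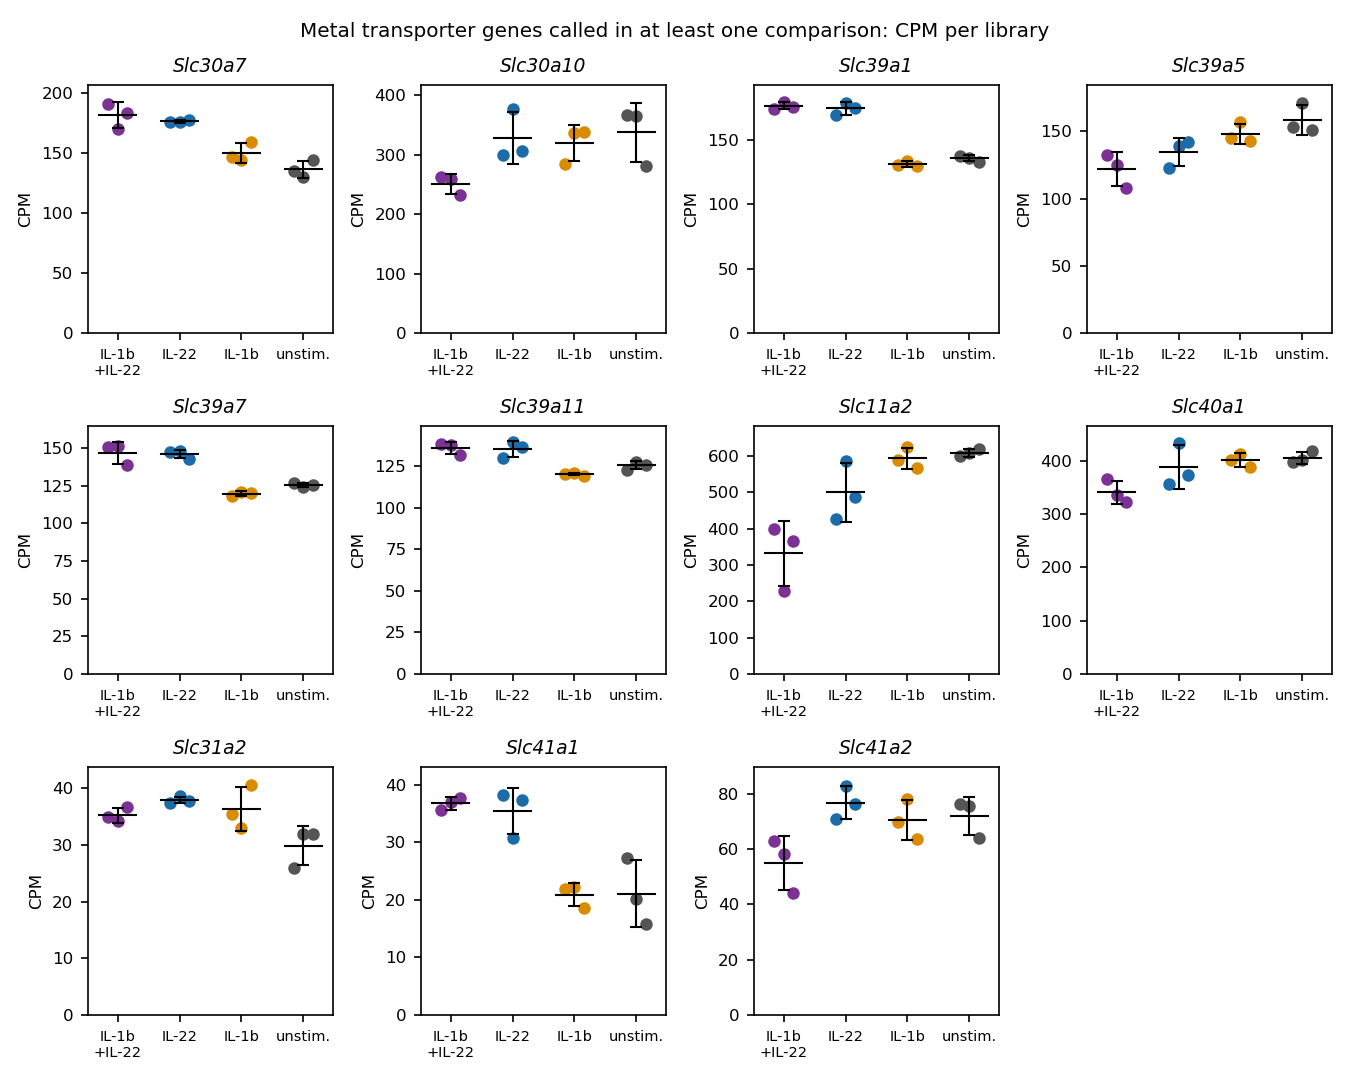
CPM in each library for the 11 members that passed the test in at least 1 comparison, with the mean (long line) and SD (error bar) of the 3 libraries of each group on axes that start at 0. Slc30a7, Slc39a1, Slc39a7, Slc39a11 and Slc41a1 are higher in the libraries with IL-22, and Slc11a2, Slc30a10 and Slc41a2 are lowest in the libraries with both cytokines.

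The iron genes that passed the test were the carriers at both ends of the transcellular route, Slc11a2 and Slc40a1, and both were lower with the pair of cytokines. Of the 5 tested iron members, 0 rose and 2 fell with both cytokines, against IL-1b and against unstimulated colonoids, and 0 were called with IL-22 or with IL-1b alone, where 13% and 13.3% of all genes fell with both cytokines in those 2 comparisons. Slc11a2 (chr15:100387898-100425072, minus strand) had 399.5, 229.9 and 366 CPM with both cytokines, 427, 587 and 486 CPM with IL-22, 588, 626 and 568 CPM with IL-1b, and 599, 608 and 619.8 CPM in unstimulated colonoids. The unstimulated and IL-1b libraries overlapped near the top, the IL-22 libraries all lay below the unstimulated ones but overlapped the IL-1b ones, and the libraries with both cytokines lay below all others. As means, Slc11a2 was at 332 ± 89.8 CPM with both cytokines, 499.8 ± 80.8 CPM with IL-22, 594 ± 29.3 CPM with IL-1b and 609 ± 10.3 CPM unstimulated (SD, n = 3 each).

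The log2 fold change of Slc11a2 with both cytokines was -0.88 ± 0.15 against unstimulated (edgeR quasi-likelihood, Benjamini-Hochberg adjusted p = 0.000752) and -0.84 ± 0.15 against IL-1b (adjusted p = 0.00114), which are decreases of 1.84-fold and 1.79-fold. With IL-22 alone it was -0.29 ± 0.15 (adjusted p = 0.192) and with IL-1b alone -0.04 ± 0.15 (adjusted p = 0.947). The interaction of Slc11a2 was -0.56 ± 0.21 with an unadjusted p of 0.0199 and an adjusted p of 0.924, so a stronger effect of IL-22 in the presence of IL-1b did not pass, although it did without the filter on low counts (adjusted p = 0.0160). The second library of both cytokines was the lowest by far, and without it the log2 fold changes were -0.66 and -0.63, still called. Slc11a2 had the most counts per base of any member, 0.883, and a correction for positions counted once, with the 6354 bases of all its exons, moved the log2 fold changes to -1.15 and -1.11. The gene model Gm5475 overlaps 402 of its exon bases on the other strand, as Gm6649 does at 1165 bases of Slc30a7 and Gm2061 at 533 bases of Slc30a10, and the strand setting of the counting is not given.

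Slc40a1 (chr1:45908068-45926523, minus strand), the only known cellular iron exporter, had 365, 335 and 323 CPM with both cytokines, 356, 434 and 373 CPM with IL-22, 401, 413 and 387 CPM with IL-1b, and 396, 401 and 418 CPM in unstimulated colonoids. The libraries with both cytokines lay below the IL-1b and unstimulated ones but overlapped those with IL-22. The log2 fold change with both cytokines was -0.25 ± 0.07 against unstimulated (edgeR quasi-likelihood, Benjamini-Hochberg adjusted p = 0.0155) and -0.23 ± 0.07 against IL-1b (adjusted p = 0.023). The first call was lost without the third library of both cytokines (adjusted p = 0.0750) and the second without any of 4 libraries (adjusted p of up to 0.0905). Slc40a1 had 0.594 counts per base. The correction for positions counted once that used the 3370 bases of its principal transcript, and was added after seeing the data, moved the first to -0.47. The correction given for Slc11a2 used the bases of all exons, which are 9000 for Slc40a1 and would correct it less. The shifts of the 2 genes are therefore not comparable.

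Tfrc, which brings in transferrin-bound iron and is high in dividing cells, had 419, 342 and 448 CPM with both cytokines, 398, 460.1 and 409.8 CPM with IL-22, 494, 451 and 466 CPM with IL-1b, and 454, 433 and 451 CPM in unstimulated colonoids. The libraries with both cytokines lay below those with IL-1b alone and overlapped the unstimulated ones. Its log2 fold change with both cytokines against IL-1b was -0.22 ± 0.08 and did not pass (edgeR quasi-likelihood, Benjamini-Hochberg adjusted p = 0.0594), although 8 of 22 alternatives called it lower. The ferritin chains Fth1 and Ftl1 had 747 to 821 and 730 to 780 counts, with a variance over mean of 0.718 and 0.494, both under 1. Ftl1 was at 150.1 to 157 CPM with both cytokines and 138 to 147 CPM unstimulated, while its raw counts were 733 to 766 with both cytokines and 757 to 780 unstimulated, so counts and CPM ran in opposite directions. No direction is read for either ferritin chain.

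Of the copper carriers, Slc31a1, the plasma membrane importer, was not called in any comparison and ran at 226 to 280.0 CPM. Slc31a2 (chr4:62262562-62298411, plus strand), its relative in endosomes, had 34.9, 34.1 and 36.7 CPM with both cytokines, 37.4, 38.5 and 37.7 CPM with IL-22, 35.5, 32.9 and 40.6 CPM with IL-1b, and 25.8, 31.8 and 31.9 CPM in unstimulated colonoids. All treated libraries lay above the unstimulated ones, and those with both cytokines lay just below those with IL-22 alone. Against unstimulated colonoids its log2 fold change was 0.24 ± 0.10 with both cytokines (edgeR quasi-likelihood, Benjamini-Hochberg adjusted p = 0.103), 0.34 ± 0.10 with IL-22 (adjusted p = 0.0287) and 0.29 ± 0.10 with IL-1b (adjusted p = 0.436), so that of these 3 comparisons the one with IL-22 passed. The call with IL-22 was lost in 7 of 22 alternatives, with an adjusted p of up to 0.115 without unstimulated replicate 1.

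The magnesium carriers held the largest called increase. Slc41a1 (chr1:131827493-131848865, plus strand) had 35.5, 37 and 37.8 CPM with both cytokines, 38.2, 30.8 and 37.3 CPM with IL-22, 21.9, 22.2 and 18.6 CPM with IL-1b, and 27.3, 20.2 and 15.7 CPM in unstimulated colonoids. All 6 libraries with IL-22 lay above all 6 without it, and libraries with and without IL-1b overlapped in both settings. Its level was 36.8 ± 1.15 CPM with both cytokines, 35.4 ± 4.05 CPM with IL-22, 20.9 ± 1.97 CPM with IL-1b and 21.1 ± 5.81 CPM unstimulated (SD, n = 3 each). Its log2 fold change was 0.75 ± 0.16 with IL-22 (1.68-fold, edgeR quasi-likelihood, Benjamini-Hochberg adjusted p = 0.00383), 0.80 ± 0.16 with both against unstimulated (1.74-fold, adjusted p = 0.00191) and 0.82 ± 0.16 with both against IL-1b (1.76-fold, adjusted p = 0.00181). The interaction was 0.07 ± 0.22 (adjusted p = 0.998).

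Slc41a2 (chr10:83230848-83337882, minus strand), a related carrier with magnesium transport shown in expression systems, fell with both cytokines. It had 62.8, 58.2 and 44 CPM with both cytokines, 71, 82.8 and 76.4 CPM with IL-22, 69.8, 78.3 and 63.5 CPM with IL-1b, and 76.4, 75.7 and 64.1 CPM in unstimulated colonoids. The libraries with both cytokines lay below all others, and the other 3 groups overlapped. Both cytokines gave a log2 fold change of -0.39 ± 0.12 against unstimulated (edgeR quasi-likelihood, Benjamini-Hochberg adjusted p = 0.0282) and -0.35 ± 0.12 against IL-1b (adjusted p = 0.0435). Of 22 alternatives 3 ended the first call and 8 the second, and without the third library of both cytokines the log2 fold changes were -0.25 (adjusted p = 0.125) and -0.23 (adjusted p = 0.171). Slc41a3, the mitochondrial magnesium carrier, was low, with 3.86 to 7.64 CPM with both cytokines, 7.23 to 9.08 CPM with IL-22, 1.5 to 4.49 CPM with IL-1b and 3.22 to 5.27 CPM unstimulated. Its IL-22 libraries lay above the unstimulated ones, and the log2 fold change of 0.88 ± 0.33 did not pass (adjusted p = 0.0668).

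Other genes of these pathways were counted from lists. Of 29 tested iron genes outside the set, 9 rose and 6 fell with both cytokines against unstimulated, 8 rose and 2 fell with IL-22, and 1 rose and 0 fell with IL-1b. Against IL-1b alone, both cytokines raised 7 and lowered 6, and against IL-22 alone they raised 1 and lowered 0. Over all genes 27% were called with both cytokines against unstimulated, 22.5% with IL-22, 26.3% with both against IL-1b, 0.0715% with IL-1b and 0.0786% with both against IL-22. Hmox1, which releases iron from haem, had a log2 fold change of 0.79 ± 0.11 with IL-22 (edgeR quasi-likelihood, Benjamini-Hochberg adjusted p = 0.000131) and 0.63 ± 0.11 with both against IL-1b (adjusted p = 0.000793). Fbxl5, the iron sensor that marks Ireb2 for degradation, had 0.44 ± 0.06 (adjusted p = 0.000227) and 0.43 ± 0.06 (adjusted p = 0.000206) in the same comparisons. Steap4, a metalloreductase, had 0.58 ± 0.09 with IL-22 (adjusted p = 0.000495) and Hif1a, the hypoxia factor, had 0.34 ± 0.06 with both against unstimulated (adjusted p = 0.00131). Among the genes that fell, named after their values were seen, Hfe, the haemochromatosis protein that takes part in iron sensing, had -0.80 ± 0.17 with IL-22 (adjusted p = 0.0041). Steap3, the metalloreductase of endosomes, had -0.92 ± 0.19 (adjusted p = 0.00265) and Ireb2, a protein that binds iron-responsive elements, had -0.31 ± 0.07 (adjusted p = 0.00373), both with both cytokines against unstimulated. Ltf and Lcn2, secreted iron-withholding proteins, were near 0 in unstimulated colonoids: Ltf had 312 counts summed over the libraries with both cytokines, 171 with IL-22, 8 with IL-1b and 10 unstimulated. Lcn2 had 602, 16, 71 and 2 counts in the same order. Both entered the test through the libraries where they were high, so only a rise over the groups near 0 could be seen. Lcn2 was the 1 gene of the iron list called higher with IL-1b against unstimulated and the 1 called higher with both cytokines against IL-22. The iron list's median log2 fold change was 0.00 with both cytokines against unstimulated, beside 0.00 for all genes.

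Of 11 tested copper genes, 3 rose and 2 fell with both cytokines against unstimulated, 2 rose and 2 fell with IL-22, 0 were called with IL-1b, and 2 rose and 1 fell with both against IL-1b, beside 27%, 22.5%, 0.0715% and 26.3% of all genes called in these 4 comparisons in that order. The list's median log2 fold change with both cytokines against unstimulated was 0.09, beside 0.00 for all genes. Atp7a, the copper ATPase that exports copper to the blood side of enterocytes, had a log2 fold change of 0.76 ± 0.08 with IL-22 (edgeR quasi-likelihood, Benjamini-Hochberg adjusted p = 1.94e-05), 0.60 ± 0.08 with both against unstimulated (adjusted p = 0.000112) and 0.54 ± 0.08 with both against IL-1b (adjusted p = 0.000283). Its level was 140.5 ± 5.73 CPM with both cytokines, 157 ± 2.92 CPM with IL-22, 96.5 ± 4.46 CPM with IL-1b and 92.7 ± 12.6 CPM unstimulated (SD, n = 3 each). Sco1, which delivers copper to cytochrome oxidase, had 0.37 ± 0.07 with IL-22 (adjusted p = 0.00247), while Ccs, the copper chaperone of Sod1, had -0.37 ± 0.09 (adjusted p = 0.00794). Cox11, which carries copper to cytochrome oxidase, had 0.19 ± 0.06 with both against unstimulated (adjusted p = 0.0468), which 18 of 22 alternatives ended. Atp7b, the other copper ATPase, had -0.71 ± 0.23 with IL-22 (adjusted p = 0.0433), which 14 of 22 alternatives ended, and -0.89 ± 0.23 with both against IL-1b (adjusted p = 0.0112).

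Of 16 tested magnesium genes, 5 rose and 0 fell with both cytokines against unstimulated, 5 rose and 0 fell with IL-22, 0 were called with IL-1b, and 2 rose and 2 fell with both against IL-1b, beside the same shares of all genes (27%, 22.5%, 0.0715% and 26.3%). The list's median log2 fold change with both cytokines against unstimulated was 0.00. Nipal1, a magnesium carrier of the NIPA family, had a log2 fold change of 0.67 ± 0.09 with both cytokines (edgeR quasi-likelihood, Benjamini-Hochberg adjusted p = 9.81e-05) and 0.50 ± 0.09 with IL-22 (adjusted p = 0.00142), each against unstimulated. Magt1, a subunit of the oligosaccharyltransferase also described as a magnesium carrier, had 0.32 ± 0.05 (adjusted p = 0.00062) and 0.27 ± 0.05 (adjusted p = 0.0032) in the same order. Nipa2, of the same family as Nipal1, had 0.18 ± 0.05 (adjusted p = 0.0286, ended by 8 of 22 alternatives) and 0.23 ± 0.05 (adjusted p = 0.00725), and Mmgt2, a membrane magnesium carrier, had 0.31 ± 0.07 (adjusted p = 0.00541) and 0.27 ± 0.07 (adjusted p = 0.0146, ended by 5 of 22). Tusc3, the relative of Magt1, fell with both against IL-1b (log2 fold change -0.32 ± 0.07, adjusted p = 0.00477). Trpm6, the channel for magnesium uptake from the lumen, also fell there (log2 fold change -0.35 ± 0.11, adjusted p = 0.0341), a call that 5 of 22 alternatives ended. Of 8 tested zinc genes, 2 were called higher with both cytokines against unstimulated and 3 against IL-1b, 2 with IL-22 alone and 0 with IL-1b alone. None was called lower, and the median log2 fold change was 0.14 with both cytokines against unstimulated. Over all genes the called shares were 27%, 26.3%, 22.5% and 0.0715% in that order. Against IL-22 alone, both cytokines raised 1 of the 8, S100a9, beside 0.0786% of all genes called. Those called higher were the zinc-binding calprotectin chains S100a8 and S100a9 and the zinc finger factor Klf4, none of which is a carrier. Both calprotectin chains are also neutrophil genes, and the other markers of that list did not behave alike: Mpo, Elane and Retnlg had no count in any library, Csf3r had 1 in all, counts of Cxcr2 were 7 with both cytokines, 11 with IL-22, 2 with IL-1b and 0 unstimulated, and Ly6g was at 152 ± 8.62 CPM with both cytokines, 155 ± 15.9 with IL-22, 123 ± 5.99 with IL-1b and 119 ± 11.3 unstimulated (mean ± SD, n = 3 each). Ly6g had 0.752 counts per base, a density at which no direction is read here. The part of neutrophils in these values was not tested. S100a8 had 69 counts summed over the libraries with both cytokines, 34 with IL-22, 2 with IL-1b and 0 unstimulated, and S100a9 had 160, 4, 13 and 1 in the same order. Both entered the test through the libraries where they were high, so only a rise over the groups near 0 could be seen. The number called in this list is therefore not read as a result about zinc genes. Klf4 had a log2 fold change of 0.18 ± 0.06 with IL-22 (adjusted p = 0.0351), which 9 of 22 alternatives ended. It had 0.651 counts per base, and its summed counts were 5823 with both cytokines, 6014 with IL-22, 5863 with IL-1b and 5949 unstimulated. With both cytokines against IL-1b its counts and CPM ran in opposite directions. No direction is therefore read for Klf4.

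Promoter windows, from 250 bases before to 50 after the start, were matched for 31 of 37 members, which had 38 windows between them (RefSeq, GRCm38.p6). Slc11a2, Slc40a1, Slc30a8, Slc39a4, Slc39a6 and Slc39a14 were not matched. The core of the metal response element, TGCACNC or TGCGCNC on either strand, which Mtf1 binds, occurred in 19 of the 38 windows, which belong to 18 members, and in 25.7% of 32817 promoters of the same length. Mt2 held 4 matches and Mt1, Slc30a10 and Slc30a4 held 3 each, where 1.97% of promoters held 3 or more. The STAT motif TTCNNNGAA, the kind of site bound by the factor that IL-22 activates, occurred in 1 of the 38, at Slc39a10, and in 8.29% of promoters. Overlapping matches were counted separately, and a match is a string of letters and not a bound site.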

How the data were processed

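The deposited table held raw read counts per gene symbol for 12 polyA RNA libraries (TruSeq Stranded kit, per the labels' protocols). The genome build was mm10 (per the submitters' processing notes). No source used here gives the alignment and counting tools, the strand setting or whether duplicate reads were removed. All columns were mapped to samples by title. Counts were tested in R 4.3.3 with edgeR 4.0.16 (filterByExpr, TMM, quasi-likelihood F test, 1 mean per group over all 12 libraries with 8 residual degrees of freedom), and p-values were adjusted by Benjamini-Hochberg over 13987 genes and called under 0.05. CPM used TMM-scaled totals. Library totals of 4703902 to 5804033 counts set the precision, and the floor of 3 counts covers counting error only.

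The members and the pathway and marker lists were chosen with earlier results of these data known. Every member was accounted for, and library values were given for those called. Up to 4 called genes per pathway list and comparison were named by smallest adjusted p, with 3 iron genes added after their values were seen. Principal transcripts and positions came from GENCODE M21 (mm10). Of 35869 symbols, 26762 matched it directly and 557 through a synonym. No 2 libraries of a group agreed within sampling noise. The test was checked on simulated counts. Alternatives were DESeq2 1.42.0, other scalings and filters, the replicate block, each library left out, only the libraries compared (limited to those groups), removal of the trend of fold change on count per exon base, and corrections that treat each position as counted once, one of them (principal transcript length) added after seeing the data.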

Additional observations from a re-analysis of the deposited data

Results flagged for a closer look

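Slc31a2, the endosomal copper carrier, was singled out because its libraries with IL-1b lay on opposite sides of those without it in the 2 settings, although neither comparison passed (log2 fold change -0.10 ± 0.10, adjusted p = 0.789, for both cytokines against IL-22, and 0.29 ± 0.10, adjusted p = 0.436, for IL-1b against unstimulated, edgeR quasi-likelihood with Benjamini-Hochberg). All 3 IL-1b libraries lay above all 3 unstimulated ones (32.9 to 40.6 CPM against 25.8 to 31.9 CPM), and all 3 libraries with both cytokines lay below all 3 with IL-22 alone (34.1 to 36.7 CPM against 37.4 to 38.5 CPM). The test of that difference itself, the interaction, gave a log2 value of -0.39 ± 0.15 with an unadjusted p of 0.0177 and an adjusted p of 0.924 over all genes (edgeR quasi-likelihood, Benjamini-Hochberg), so it did not pass.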

How the results depend on the processing

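No member's called direction reversed in any of the alternatives run. Slc41a1, Slc39a1 and Slc30a7 kept their 3 calls each, and Slc11a2 its 2, in all alternatives that gave a value, but the principal-length correction gave none for Slc11a2. Without the filter on low counts, where 36 members were tested, 10 members were called with IL-22 against unstimulated (7 higher and 3 lower, against 5 higher with the filter), 3 with both cytokines against IL-22 (Slc11a2, Slc30a10 and Slc41a2, all lower) and 1 in the interaction (Slc11a2, adjusted p = 0.0160, edgeR quasi-likelihood with Benjamini-Hochberg). The cause was not tested. Slc39a2 was then lower with both cytokines (log2 fold change -1.74, adjusted p = 0.0224) and with IL-22 (-1.60, adjusted p = 0.0417), each against unstimulated. It is among the members described above as too low to read, and 19 of its 35 unstimulated counts came from replicate 1. Removing the trend of fold change on count per exon base gave 5 members higher and 2 lower with IL-22 against unstimulated, where the main fit gave 5 and 0. It gave 4 higher and 8 lower with both cytokines against unstimulated (main fit 4 and 5) and 4 and 8 against IL-1b (main fit 5 and 5). With both cytokines against IL-1b, leaving out 1 library gave 6 to 13 called members, the lowest without IL-1b replicate 2. Over all genes, IL-22 against unstimulated gave 1992 calls without unstimulated replicate 2, against 3144. IL-1b against unstimulated gave 8 to 212 calls over the alternatives, against 10, with 212 without the filter, 32 by DESeq2 and 28 without unstimulated replicate 3. Both cytokines against IL-22 gave 3 to 336, against 11, with 336 without the filter and 85 by DESeq2. The interaction gave 50 without the filter and 4 by DESeq2, against 0. Total counts as the only scaling gave 1495 higher and 2262 lower with both cytokines against unstimulated, against 1920 and 1863, and 1391 and 2387 against IL-1b, where the main scaling gave 1860 and 1822. With the replicate number as a block, the called members numbered 5, 0, 9, 0, 10 and 0 in the 6 comparisons and no member's call changed. Little shared signal was seen between libraries of the same number: 1 of 18 such pairs correlated above 0.1 (range -0.216 to 0.193), and 2 libraries correlated best with their own number. These correlations cannot show whether libraries of the same number came from 1 mouse or culture. Depth limits the 6 untested members, and counts near 1 per base limit Mt1, Mt2, Fth1 and Ftl1. Slc11a2 and Slc40a1, at 0.883 and 0.594 counts per base, lie in or near that range, so the size of their changes is uncertain.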
